A study of Zea mays with 36 samples.

Results

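MYBR79 is a maize MYB-related transcription factor (TF) with the gene ID Zm00001eb172450, and its RNA level was followed here in leaf and root through nitrate withdrawal and resupply. It is 1 of 43459 genes in each deposited table, found by its gene ID, and it was selected on its expression pattern in these libraries. Its levels and their changes are therefore given as a description, with no p-value. The study's annotation calls it Protein LHY, and the study pairs it with the Arabidopsis gene LHY. Its older identifier GRMZM2G014902 matched the RefSeq locus LOC100281091 on chromosome 4 at 34452072 to 34485595 of the B73 NAM-5.0 assembly, which spans 33524 bp and holds 13 RefSeq transcripts.

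In Arabidopsis, LHY (late elongated hypocotyl) is a core gene of the circadian clock. Its RNA is most abundant around dawn, and the protein, which binds DNA through a single MYB-type domain, represses genes of the evening, among them members of the pseudo-response regulator family and LUX. Evening proteins in turn repress LHY, so that both groups of RNAs cycle in opposite phase over the day.

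Plants of the inbred line B73 were grown in hydroponic solution under 16 h light and 8 h dark and sampled as leaf and as root. The 0 h group had normal nitrogen (NN), the 0.5, 3 and 24 h groups were under nitrogen deprivation (ND) in a solution without nitrate, and the 24.5 and 48 h groups were in nitrogen recovery (NR) after nitrate was returned at 24 h. Each group held 3 replicates, each a pool of plants, which gave 18 libraries per tissue and 36 in all. The last group carries the label 48 h, which the methods of the study place 24 h after resupply, while the protocol text of the labels can also be read as 48 h after it. Leaf was taken from developed leaves, and root was a mixture of seminal and crown roots. No plants kept on nitrate were sampled at the later times, and the hour of harvest was not given in the sources used here, so a change with the hour of the day and a change with nitrate cannot be told apart at 0.5, 3 and 24.5 h. The 0 h, 24 h and 48 h groups share the same hour under the reading of the methods. At 24 and 48 h, a change with the day of sampling and a change with nitrate cannot be told apart either.

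Values were TPM, a measure of transcript abundance scaled per gene length, which sum to the same total in every library and keep no read depth, so the depth was unknown. Between 20367 and 21735 genes reached at least 1 TPM in a leaf library and between 23774 and 24773 in a root library. The 7 light-harvesting genes used as leaf markers summed to 2568 to 6997 TPM in leaf libraries and to 1.28 to 87.7 TPM in root libraries, with 1 of the 7 (Zm00001eb357740) listed at 0 in some leaf libraries and 2 listed at 0 in a root library. The 3 root markers, NRT2.1, NAR2.1 and a Casparian strip membrane protein, summed to 13.4 to 276 TPM in root and to 0 to 2.82 TPM in leaf, where each was listed at 0 in some libraries. Some libraries stood apart from their group. Root 48 h replicate 2 had a mean correlation of 0.952 with its own replicates and of 0.975 with 24 h replicate 3 (Pearson, log2(TPM + 1) over the genes tested). In leaf, all 3 libraries at 48 h and replicates 2 and 3 at 24.5 h were nearer, by correlation, to some library of another group than to any of their own, as was 0.5 h replicate 3. Replicates are labelled as biological, but p-values measure only the spread between these pools.

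In leaf, MYBR79 was abundant before withdrawal, nearly gone after 3 h, and back to an intermediate level after 24 h. At 0 h it stood at 343, 336 and 334 TPM in replicates 1, 2 and 3, with a mean of 338 ± 4.8 (SD, n = 3), and ranked 386 from the highest among 43459 genes. At 0.5 h it stood at 65.4, 50.9 and 37.9 TPM, with a mean of 51.4 ± 14 (SD, n = 3), or 15.2% of the 0 h mean. At 3 h the values were 5.24, 5.12 and 4.12 TPM, with a mean of 4.83 ± 0.62 (SD, n = 3), which was 1.43% of the 0 h mean. The 3 groups did not overlap, and every library at 3 h lay under every library at 0.5 h. After 24 h of deprivation the values were 147, 139 and 196 TPM, with a mean of 161 ± 31 (SD, n = 3). This was 33.3 times the 3 h mean and 47.6% of the 0 h mean. The level at 24 h thus lay between those at 0 h and 0.5 h without overlapping either group.

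Resupply was followed by a wide spread of MYBR79 in leaf. At 24.5 h the libraries held 86.5, 191 and 83.6 TPM, with a mean of 120 ± 61 (SD, n = 3), and at 48 h they held 101, 253 and 54.9 TPM, with a mean of 136 ± 104 (SD, n = 3). The groups at 24, 24.5 and 48 h overlapped with each other. None of these 9 libraries reached the lowest library at 0 h. From the highest mean to the lowest, the order in leaf was 0, 24, 48, 24.5, 0.5 and 3 h, and only the neighbours 24 and 48 h and the neighbours 48 and 24.5 h overlapped.

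In root, MYBR79 was lower than in leaf at every time point and its mean was also far under the 0 h mean at 0.5 h, but at 24 h it stood at a smaller share of the 0 h mean than in leaf. The libraries held 38.6, 32.0 and 31.2 TPM at 0 h, with a mean of 33.9 ± 4.1 (SD, n = 3). They held 7.40, 3.59 and 4.08 TPM at 0.5 h, with a mean of 5.02 ± 2.1 (SD, n = 3), or 14.8% of the 0 h mean. At 3 h they held 3.26, 2.27 and 1.92 TPM, with a mean of 2.48 ± 0.69 (SD, n = 3), or 7.32% of the 0 h mean. The 3 groups did not overlap. At 24 h the libraries held 6.87, 7.41 and 5.64 TPM, with a mean of 6.64 ± 0.91 (SD, n = 3), which was 2.67 times the 3 h mean and 19.6% of the 0 h mean. Unlike in leaf, the 24 h libraries overlapped those of 0.5 h.

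At 24.5 h the root libraries held 4.36, 3.40 and 7.64 TPM, with a mean of 5.13 ± 2.2 (SD, n = 3). At 48 h they held 12.5, 10.7 and 15.3 TPM, with a mean of 12.8 ± 2.3 (SD, n = 3), above all libraries at 24 and 24.5 h and under all libraries at 0 h. The order of the means in root was 0, 48, 24, 24.5, 0.5 and 3 h, in which the neighbours 24 and 24.5 h overlapped, and so did the neighbours 24.5 and 0.5 h. The 48 h group thus ranked higher here than in leaf. In these bulk samples, fewer cells that express the gene and less RNA per cell cannot be told apart.

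**Figure D1:**
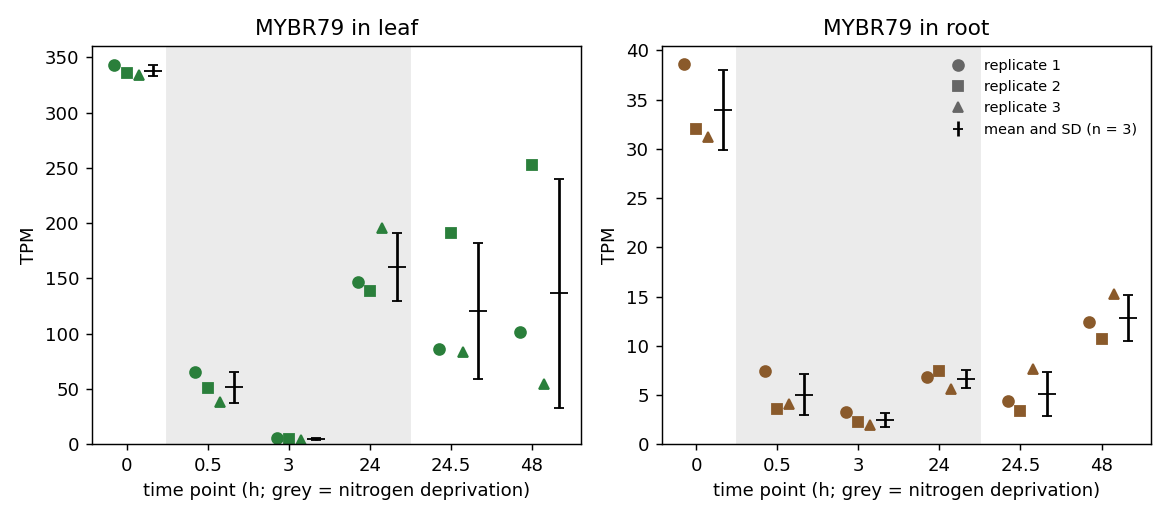
MYBR79 level in TPM (vertical axis, linear, with its own range for each tissue) at the 6 time points in leaf (left) and root (right). Points are libraries, with a shape per replicate, and the black bars give the mean and SD of 3 replicates. The leaf mean was 338 TPM at 0 h, 4.83 at 3 h and 161 at 24 h, and the root mean was 33.9, 2.48 and 6.64 TPM at the same times.

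The tissues were deposited and normalized as separate tables, so levels across them are set side by side without a test. The leaf mean was 9.96 times the root mean at 0 h and 10.2 times at 0.5 h. It was 1.94 times the root mean at 3 h, 24.2 times at 24 h, 23.5 times at 24.5 h and 10.6 times at 48 h. The gap was thus smallest at 3 h, when leaf was lowest, and widest at 24 h, when leaf had regained more of its level than root.

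On the log2(TPM + 1) scale, a linear model of all 18 libraries of a tissue (limma) gave the size of each change. In leaf, the difference from 0 h was -2.73 ± 0.41 (SE, n = 3 per group) at 0.5 h, -5.87 ± 0.41 at 3 h and -1.08 ± 0.41 at 24 h. It was -1.59 ± 0.41 at 24.5 h and -1.58 ± 0.41 at 48 h. In root, the difference from 0 h was -2.58 ± 0.25 (SE) at 0.5 h, -3.34 ± 0.25 at 3 h and -2.19 ± 0.25 at 24 h. Recovery groups had -2.56 ± 0.25 (24.5 h) and -1.35 ± 0.25 (48 h). Set in order among all genes tested, MYBR79 ranked 4 from the lowest of 23268 in leaf at both 0.5 and 3 h, and it ranked 7 at 0.5 h and 29 at 3 h from the lowest of 26245 in root. Since the gene was chosen from this pattern, these places describe it and test nothing.

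Withdrawal at 0 h and resupply at 24 h were each followed by a sampling 30 min later from the same hour of the day, with no library in common, so the same hour passed with nitrate changed in opposite directions. In leaf, MYBR79 moved by -2.73 ± 0.41 (SE) in the interval after withdrawal and by -0.51 ± 0.41 in the interval after resupply, and the second minus the first was 2.22 ± 0.58. In root, the corresponding values were -2.58 ± 0.25, -0.37 ± 0.25 and 2.21 ± 0.36. In both tissues the mean was lower 30 min after resupply than before it, yet the groups at 24 and 24.5 h overlapped. Leaving out 1 library moved the resupply value in leaf between -0.89, with 24.5 h replicate 2 left out, and -0.30, with 24.5 h replicate 3 left out. In root it moved between -0.65, with 24.5 h replicate 3 left out, and -0.16, with 24.5 h replicate 2 left out. The starting level differed between the intervals, since at 24 h it was 47.6% of the 0 h level in leaf and 19.6% in root.

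**Figure D2:**
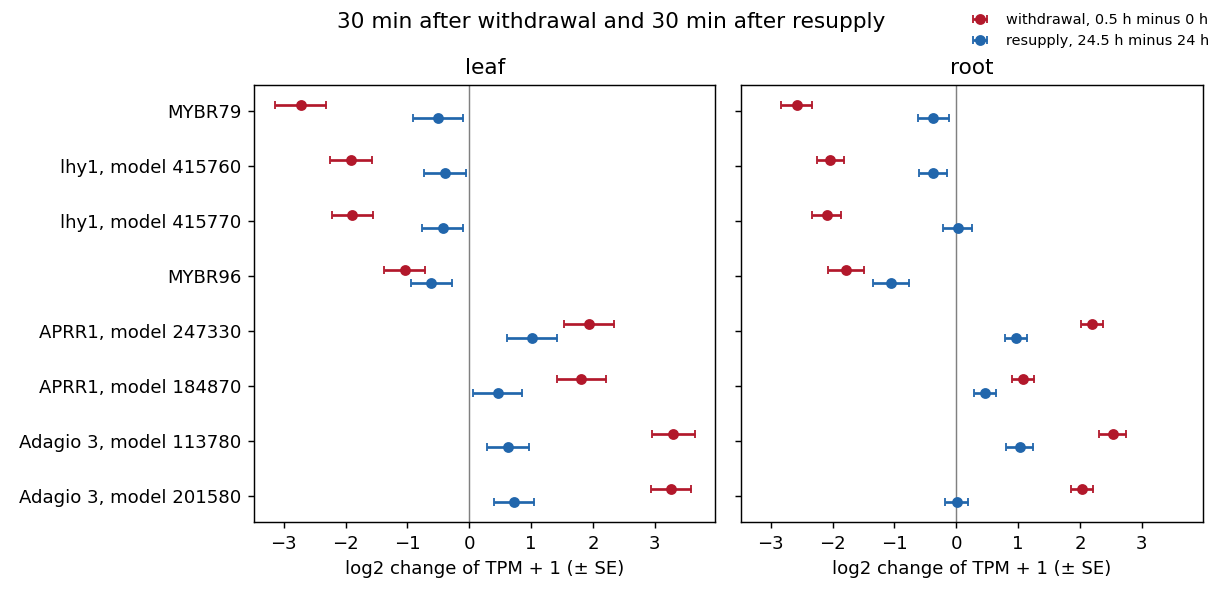
Change in log2(TPM + 1) over 30 min after withdrawal (0.5 h minus 0 h, red) and after resupply (24.5 h minus 24 h, blue), in leaf (left) and root (right), with points at the limma estimate and bars at ± 1 SE. MYBR79 lies at -2.73 and -0.51 in leaf and at -2.58 and -0.37 in root. The blue points lie nearer to 0 than the red ones for the genes shown, which does not hold for all genes of the MYB-related and clock-annotated lists. In root, LUX Zm00001eb139830, APRR9, MYBR17 and MYBR18 were among those that changed more after resupply than after withdrawal.

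RNA of leaf-specific genes was found at low levels in root libraries. Whether it came from leaf was not tested, but its amount bears on a gene that is far more abundant in leaf. The share that leaf RNA could make up was estimated from 50 leaf-specific genes, picked for their high ratio of leaf to root level in these libraries. The share was the median, over these genes, of the level in the root library divided by the mean leaf level at the same time. As the genes were picked for a low root level relative to leaf in these same libraries, the share can be understated. It ranged from 0.0654% to 0.126% at 0 h and its highest value was 0.834% among the 0.5 h libraries, 1.11% among those of 3 h, 1.79% among those of 24.5 h and 1.09% among those of 48 h. Multiplied by the leaf level of MYBR79, the share could bring 0.221 to 0.426 TPM at 0 h, at most 0.429 TPM at 0.5 h and at most 0.0536 TPM at 3 h. At 24.5 h it could bring 2.16 of the 7.64 TPM in replicate 3, or 28.3%, against 0.0747 of 4.36 TPM in replicate 1. At 48 h it could bring 5.23% to 9.68% of the root level. With this part subtracted, the root means were 33.6 ± 4.1 TPM at 0 h, 4.81 ± 2.1 at 0.5 h and 2.47 ± 0.67 at 3 h (SD, n = 3). They were 6.52 ± 0.90 TPM for the 24 h group, 4.20 ± 1.3 for the 24.5 h group and 11.9 ± 1.9 for the 48 h group. The order of the means changed only at its lower end, where 24.5 h then lay under 0.5 h. With 100 leaf-specific genes, the share was 1.96% in 24.5 h replicate 3, or 31.0% of its MYBR79 level. In 0.5 h replicate 2 it was 0.795%, under the value from 50 genes. The mean after subtraction was then 4.12 ± 1.2 TPM at 24.5 h and 4.81 ± 2.1 at 0.5 h.

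**Figure D3:**
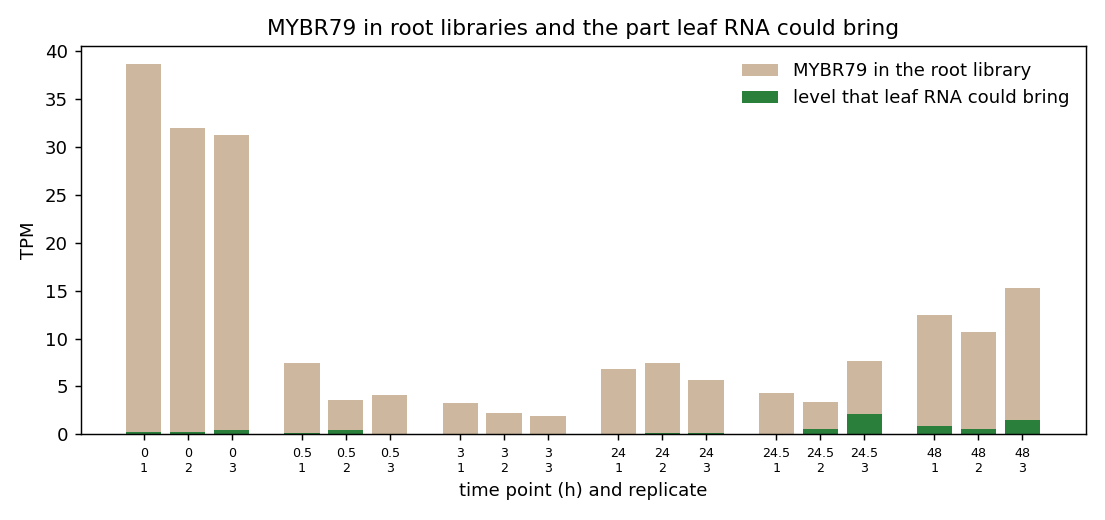
MYBR79 level in each root library (tan bars, TPM, axis from 0) and the level that leaf RNA in the library could bring (green), by time point and replicate. The green part is 2.16 of 7.64 TPM in 24.5 h replicate 3 and at most 0.426 TPM in the libraries at 0 h.

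Another gene annotated as LHY was lhy1. The clone of that name in the study's TF library corresponds to 2 gene models, Zm00001eb415760 and Zm00001eb415770, and both fall in the single RefSeq locus LOC100192868 on chromosome 10 at 79577671 to 79637938 (NAM-5.0), so how reads were split between them is uncertain. Both models were more abundant than MYBR79, at 559 ± 7.5 and 486 ± 18 TPM in leaf at 0 h (SD, n = 3). In root at 0 h they stood at 57.1 ± 8.7 and 42.4 ± 1.8 TPM. Their leaf means at 3 h were 19.9 ± 6.4 and 22.1 ± 3.3 TPM, and their root means at 3 h were 6.38 ± 1.2 and 6.20 ± 2.2 TPM. Leaf means at 24 h were 309 ± 30 and 289 ± 32 TPM.

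The 11 other gene models of the MYB-related clones in that library were tested in the same fit (limma, Benjamini-Hochberg adjustment over all genes, called at an adjusted p under 0.05 and an absolute log2 change above 1). MYBR73 was not tested in leaf, where it was listed at 0 in most libraries, which left 10 models in leaf and 11 in root. At 0.5 h, 3 of 10 were called lower in leaf, where 0.769% of all genes were called lower, and 3 of 11 in root, against 1.14% of all genes. At 3 h it was 4 of 10 in leaf, against 5.17% of all genes, and 2 of 11 in root, against 2.6%. At 24 h it was 1 of 10 in leaf, against 2.06%, and 2 of 11 in root, against 2.58%. None of the list was called higher in these comparisons by limma. At an unadjusted p under 0.05, 0 were higher in either tissue at 0.5 h and 1 was in each tissue at 3 h, while the 24 h comparison had 2 in leaf and 1 in root. The list median at 0.5 h was -0.49 on the log2 scale in leaf, where the median of all genes was 0.04, and -0.22 in root, where that of all genes was -0.08.

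The calls rested on few members. Both lhy1 models, which fall in a single RefSeq locus, were among those called at 0.5 and 3 h in each tissue. In leaf at 0.5 h, Zm00001eb415760 and Zm00001eb415770 (lhy1) changed by -1.92 ± 0.34 and -1.89 ± 0.33 on the log2 scale (SE, limma adjusted p = 0.00427 and 0.00392), and at 3 h they changed by -4.79 ± 0.34 and -4.40 ± 0.33 (adjusted p = 1.11e-07 and 1.77e-07). In root they changed by -2.03 ± 0.22 and -2.09 ± 0.24 at 0.5 h (limma adjusted p = 0.000119 for both) and by -2.98 ± 0.22 and -2.64 ± 0.24 at 3 h (adjusted p = 1.29e-06 and 7.76e-06). At 24 h lhy1 was still lower in root, by -1.54 ± 0.22 and -1.88 ± 0.24 (limma adjusted p = 0.000506 and 0.000212). In leaf at 24 h its values of -0.86 ± 0.34 and -0.75 ± 0.33 were not called (limma adjusted p = 0.102 and 0.141).

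MYBR96 (Zm00001eb228670), annotated as REVEILLE 7, a clock-associated MYB-related factor in Arabidopsis, fell in leaf at 3 h, with a log2 change of -2.76 ± 0.33 (SE, limma adjusted p = 1.37e-05), and in root at 0.5 h, with -1.78 ± 0.29 (adjusted p = 0.00112). Its leaf value at 0.5 h was -1.04 ± 0.33 and was not called (adjusted p = 0.0776). Unlike MYBR79, its mean in leaf at 24 h, 14.5 ± 1.6 TPM, was not under that at 0 h, 12.6 ± 2.0 TPM (SD, n = 3).

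MYBR17 (Zm00001eb161460) fell in leaf at each of these times, from 8.27 ± 0.87 TPM at 0 h to 2.72 ± 1.8 (0.5 h), 0.737 ± 0.14 (3 h) and 2.62 ± 0.97 (24 h) (SD, n = 3, limma adjusted p = 0.0215, 6.66e-05 and 0.0162). Its call at 24 h, the only one of the list in leaf, was lost without leaf 0 h replicate 2, 24 h replicate 1 or 24 h replicate 2 (adjusted p = 0.0626, 0.0513 and 0.0593), and its call at 0.5 h was lost without any 1 of the 0 h libraries or 0.5 h replicate 3 (adjusted p from 0.0543 to 0.0847). Over the other models of the list, MYBR3, MYBR6, MYBR18, MYBR21, MYBR35, MYBR73 and MYBR101, none was called at 0.5, 3 or 24 h in either tissue. Without root 3 h replicate 3, the count in root at 3 h was 4.

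After resupply, 0 of 10 models were called lower or higher in leaf at 24.5 h against 24 h (limma), where 0.0043% of all genes were called lower, and 1 was lower and 0 higher at an unadjusted p under 0.05. In root, 2 of 11 were called lower, against 0.644% of all genes. These were MYBR17, which fell by 1.13 ± 0.17 (SE, log2, limma adjusted p = 0.000788), and MYBR96, which fell by 1.06 ± 0.29 (adjusted p = 0.0191). The MYBR96 call was lost without root 24 h replicate 1 or 2 or 24.5 h replicate 2 or 3 (adjusted p from 0.0542 to 0.082). Neither lhy1 model was called in root over this interval, at -0.37 ± 0.22 for Zm00001eb415760 and 0.03 ± 0.24 for Zm00001eb415770 (limma adjusted p = 0.262 and 0.956).

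The difference between the resupply and withdrawal intervals was tested for the list as an interaction. In root, both lhy1 models were called, with 1.66 ± 0.31 for Zm00001eb415760 and 2.12 ± 0.33 for Zm00001eb415770 (SE, log2, limma adjusted p = 0.00397 and 0.00151), and these were the 2 calls among 11 models, against 4.82% of all genes called in either direction. Both models fall in a single RefSeq locus, so they are not 2 separate hits. In leaf, 0 of 10 were called (limma), against 0.413% of all genes, while 3 were higher and 0 lower at an unadjusted p under 0.05. The leaf values of lhy1 were 1.53 ± 0.48 and 1.47 ± 0.47 (adjusted p = 0.154 and 0.162).

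Genes whose annotation names a clock component were followed beside MYBR79. The 13 gene models are the lhy1 pair, MYBR96, 2 annotated as Cyclic dof factor 2, 2 as APRR1, 1 each as APRR5 and APRR9, 2 as LUX and 2 as Adagio protein 3. In Arabidopsis, APRR1 (TOC1), APRR5 and APRR9 are pseudo-response regulators, LUX belongs to the evening complex, Adagio protein 3 (FKF1) is a blue-light receptor, and cyclic DOF factors repress flowering genes in the morning. These annotations come from the study's lists of genes it called changed at 0.5 or 3 h in these libraries. Their changes at those times are therefore not independent evidence and are given here as levels. The interaction values printed for some of them further below include the 0.5 h change and share this limit.

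At 3 h, 8 of the 13 models had a higher mean than at 0 h and 5 a lower one, in leaf and in root alike. The 5 lower models were lhy1, MYBR96 and the pair annotated as Cyclic dof factor 2. One APRR1 model (Zm00001eb247330) had leaf means of 1.14 ± 0.18 (0 h), 7.53 ± 3.0 (0.5 h) and 72.4 ± 4.9 TPM (3 h) (SD, n = 3). In root its means at these times were 8.01 ± 2.7, 38.8 ± 3.2 and 71.0 ± 3.0 TPM. The LUX models stayed low at 0.5 h and were high at 3 h. Zm00001eb139830 had leaf means of 0.164 ± 0.14, 0.918 ± 0.41 and 41.3 ± 6.6 TPM, and Zm00001eb362240 had 0.159 ± 0.15, 1.45 ± 1.0 and 30.6 ± 8.0 TPM. The Adagio protein 3 model Zm00001eb113780 was already high at 0.5 h, with leaf means of 3.42 ± 1.4, 41.3 ± 5.5 and 99.3 ± 6.5 TPM. These levels were higher over the same libraries in which MYBR79 went from 338 to 4.83 TPM.

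At 24 h the means of most of these genes, like those of MYBR79, lay between the 0 h and 0.5 h means. For MYBR79 in root, the 24 h and 0.5 h libraries overlapped. The 24 h mean lay between the 0 h and 0.5 h means for 12 of 13 models in leaf, with MYBR96 the exception, and for 12 of 13 in root, with Adagio protein 3 (Zm00001eb201580) the exception. It lay on the same side of the 0 h mean as the 3 h mean for 12 of 13 in leaf and 13 of 13 in root. Over the 30 min after resupply, the mean moved in the same direction as after withdrawal for 13 of 13 models in leaf and 12 of 13 in root. The exception in root was lhy1 Zm00001eb415770, at 10.8 ± 0.84 TPM at 24 h and 11.1 ± 2.5 at 24.5 h. The comparisons against 0 h share the 0 h libraries, and the lhy1 pair falls in a single RefSeq locus. These counts take the direction of means only, and the same share over all genes was not computed. Some of them rest on near ties or low levels. APRR1 Zm00001eb184870 in root counted as between at 11.39 TPM (24 h) against 11.42 TPM (0.5 h). LUX Zm00001eb139830 in leaf counted as between at 0.446 ± 0.56 TPM (24 h, SD, n = 3). Between 24 and 24.5 h, 0 of 13 models were called in leaf (limma), against 0.0258% of all genes called in either direction. In root 4 of 13 were called, against 3.54% of all genes. Adagio protein 3 Zm00001eb201580 counted as rising in root at a log2 change of 0.005. At 48 h the LUX model Zm00001eb139830 was down to 0.901 ± 0.20 TPM in root, and APRR1 Zm00001eb247330 stood at 26.6 ± 2.1 TPM there.

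**Figure D4:**
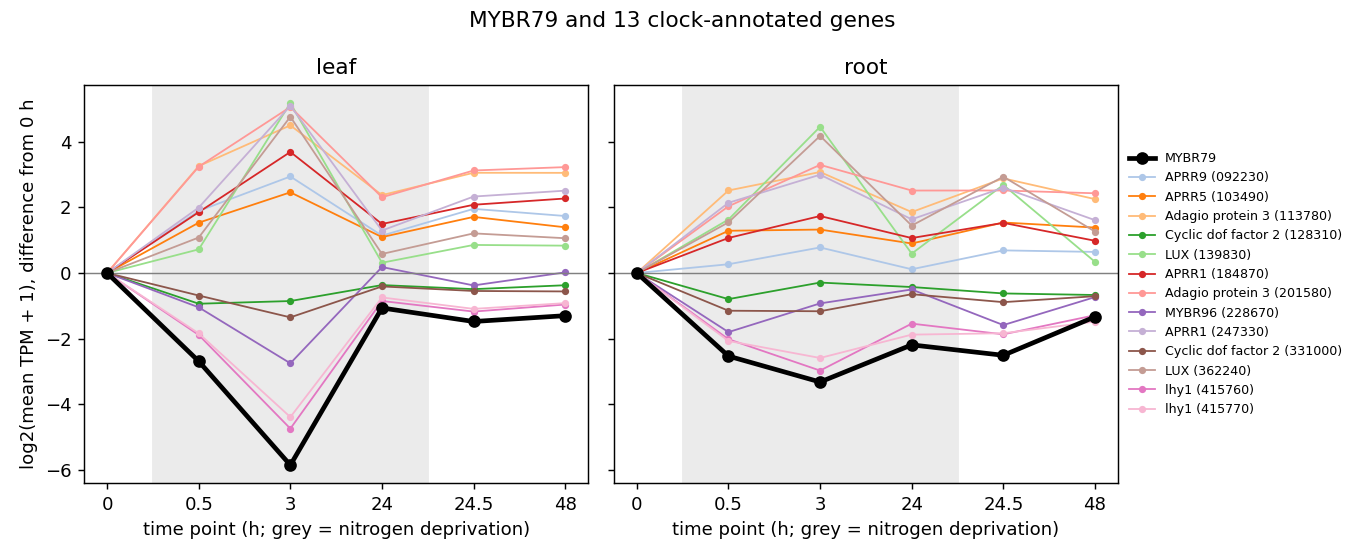
Difference of log2(mean TPM + 1) from the 0 h group for MYBR79 (thick black line) and 13 clock-annotated gene models (coloured, named by annotation and the last digits of the gene ID) at the 6 time points in leaf (left) and root (right), with means of 3 replicates and no error shown. At 3 h, 8 models lie above 0 and 5 under it in each tissue, and the LUX models reach 41.3 and 30.6 TPM in leaf.

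The replicates that spread in MYBR79 also spread in these genes at 48 h in leaf. MYBR79 was 4.61 times as high in leaf 48 h replicate 2 as in replicate 3. In the same pair of libraries, all 5 of the models that were lower at 3 h were higher in replicate 2, and all 8 of the models that were higher at 3 h were lower in it. At 24.5 h in leaf, where MYBR79 was 2.29 times as high in replicate 2 as in replicate 3, 3 of the 5 were higher and 0 of the 8 were lower. In root at 48 h, where MYBR79 was 1.43 times as high in replicate 3 as in replicate 2, 0 of the 5 were higher and 4 of the 8 were lower in replicate 3. The highest root replicate of MYBR79 held 2.06 times the lowest at 0.5 h and 2.25 times at 24.5 h. At both times all 5 were higher in that replicate, and 2 of the 8 were lower. The same share over all genes was not computed, and the leaf libraries at 48 h also stood apart over the genes tested. No harvest time of single pools was given in the sources used here, and its part in these differences was not tested.

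Across libraries, the lhy1 models had the pattern most like MYBR79. Likeness was the smaller of the Pearson correlations with MYBR79 over the 18 libraries of leaf and the 18 of root, on log2(TPM + 1), among 21437 other genes tested in both tissues. These correlations are descriptions over libraries that share groups and time points. Zm00001eb415760 ranked 1, with 0.993 in leaf and 0.955 in root, and Zm00001eb415770 ranked 2, with 0.994 and 0.931. Only 1308 of the 21437 genes have a name in the study's tables, many of them from its lists of changed genes, so the named genes below are a selection from those ranked.

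The next named gene, at rank 5, was annotated as B-box zinc finger protein 19 (Zm00001eb319460), of a family that acts in light signalling in Arabidopsis, with correlations of 0.938 and 0.866. Its leaf means were 78.7 TPM at 0 h, 17.0 at 3 h and 109 at 24 h, so it regained its 0 h level in leaf where MYBR79 did not. A pair of genes annotated as the ultraviolet-B receptor UVR8 ranked 7 (Zm00001eb148070) and 17 (Zm00001eb367810). Their leaf means were 3.74 and 4.22 TPM at 0 h and 0.0703 and 0.104 TPM at 3 h. The TF bZIP104 (Zm00001eb233420) ranked 15, with leaf means of 22.3 TPM at 0 h and 7.37 at 3 h. A glycerol 3-phosphate permease (Zm00001eb415960) ranked 19, UDP-glycosyltransferase 84A1 (Zm00001eb206400) ranked 22, the esterase LIP-4 (Zm00001eb131150) ranked 24 and Cyclic dof factor 2 (Zm00001eb331000) ranked 25. The last of these went between 0 and 3 h from 85.5 to 32.9 TPM (leaf) and from 34.8 to 14.9 TPM (root).

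The genes with the most opposite pattern, ranked by the larger of both correlations from the lowest up, included several of the evening group. APRR1 models ranked 2 (Zm00001eb247330, -0.926 in leaf and -0.919 in root) and 7 (Zm00001eb184870). LUX Zm00001eb362240 ranked 8, and Adagio protein 3 ranked 9 (Zm00001eb201580) and 14 (Zm00001eb113780). A gene annotated as Bifunctional nuclease 1 (Zm00001eb135130) ranked 6 and had a correlation of -0.981 in leaf, the lowest of all 21437 genes there. Its leaf means were 1.19 (0 h), 26.4 (0.5 h), 728 (3 h) and 5.97 TPM (24 h), a larger swing than that of MYBR79, whereas in root they ran only from 0.977 to 6.69 TPM. The protein kinase SRK2E (Zm00001eb051510), known from abscisic acid signalling in Arabidopsis, ranked 5, with root means of 8.37 TPM at 0 h and 39.7 at 3 h. A chloroplast thioredoxin-like protein (Zm00001eb256520) ranked 10, a chloroplast post-illumination fluorescence protein (Zm00001eb219530) ranked 12, and Heat stress transcription factor C-1 (Zm00001eb154070) ranked 13.

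In the study's network, built with yeast one-hybrid assays in which a TF is tested for binding to a promoter fragment, MYBR79 is linked to 3 promoters. They belong to NRT2.1, a high-affinity nitrate transporter, NPF4.9, of the nitrate and peptide transporter family, and RFNR, a ferredoxin-NADP reductase of the root type that supplies reductant for nitrite reduction. No factor is recorded on a MYBR79 promoter there. The fragments of the 3 promoters are the sequences on which these links rest. Below, 120 bases from the start of each fragment are printed 5′ to 3′, with the left cloning primer in capitals.
RFNR: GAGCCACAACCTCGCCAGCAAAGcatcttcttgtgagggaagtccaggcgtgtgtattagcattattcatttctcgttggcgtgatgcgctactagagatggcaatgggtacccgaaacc
NRT2.1: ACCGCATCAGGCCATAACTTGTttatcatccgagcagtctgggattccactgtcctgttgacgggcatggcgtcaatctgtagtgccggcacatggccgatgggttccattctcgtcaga
NPF4.9: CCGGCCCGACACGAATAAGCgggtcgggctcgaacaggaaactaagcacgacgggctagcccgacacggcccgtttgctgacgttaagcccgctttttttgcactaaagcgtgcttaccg

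The fragments are 1303 bp (RFNR), 1475 bp (NRT2.1) and 844 bp (NPF4.9) long, of which 399 bases each were at hand. The evening element core, AAATATCT, and the related CCA1-binding site, AAAAATCT, are sequences that LHY of Arabidopsis binds. On either strand, neither was found in the 399 bases of these 3 fragments or of the AlaAT3 fragment. Over the 97 fragments of the assay, searched over the same length, AAATATCT was found in 4 (4.12%) and AAAAATCT in 9 (9.28%). The rest of each fragment was not searched.

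In root, the linked genes took different courses while MYBR79 was low. NRT2.1 stood at 0.733, 1.16 and 1.77 TPM at 0 h, at 7.38, 9.37 and 7.31 TPM at 3 h and at 76.3, 228 and 47.3 TPM at 24 h. The 24 h level was higher than that at 0 h, by 5.44 ± 1.28 on the log2 scale (SE, limma adjusted p = 0.00851), and the value at 3 h, 2.04, was not called (adjusted p = 0.309). At 48 h NRT2.1 stood at 0.285, 217 and 1.52 TPM, and the high library was root 48 h replicate 2, the library that stood apart. The older identifier of this gene matches nrt2.2 in RefSeq as well, so the assignment of reads between these copies is uncertain. NPF4.9 stood at 3.02 ± 0.72 TPM at 0 h and 6.15 ± 0.34 at 3 h (SD, n = 3), and its log2 change of 0.84 was under the threshold of 1 (limma adjusted p = 0.0204). It was higher at 24.5 h than at 0 h by 1.14 ± 0.23 (limma adjusted p = 0.00302), a call lost without root 24.5 h replicate 2, where it was 11.6 TPM (log2 change 0.88, adjusted p = 0.0103).

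RFNR moved in the same direction as MYBR79 in root over the first 3 h and lay above its 3 h libraries at every later time point. It stood at 361, 431 and 414 TPM at 0 h and at 128, 109 and 134 TPM at 3 h, a log2 change of -1.69 ± 0.36 (SE, limma adjusted p = 0.00546). At 24 h it stood at 320, 558 and 177 TPM, on both sides of the 0 h libraries, and at 24.5 h at 519, 460 and 490 TPM, above all of them, while MYBR79 remained at 3.40 to 7.64 TPM. In leaf RFNR was tested and not called at any time point, with a mean of 22.9 ± 5.4 TPM at 0 h and 14.9 ± 1.7 at 3 h (SD, n = 3, log2 change -0.57, limma adjusted p = 0.0925). NRT2.1 and NPF4.9 were too low to be tested in leaf. AlaAT3, an alanine aminotransferase and the maize counterpart of a gene that LHY is linked to in the Arabidopsis network, was not called in either tissue, with root means of 95.9 ± 4.9 TPM at 0 h and 57.9 ± 2.0 at 24 h (SD, n = 3, log2 change -0.72, limma adjusted p = 0.00018, under the fold threshold).

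**Figure D5:**
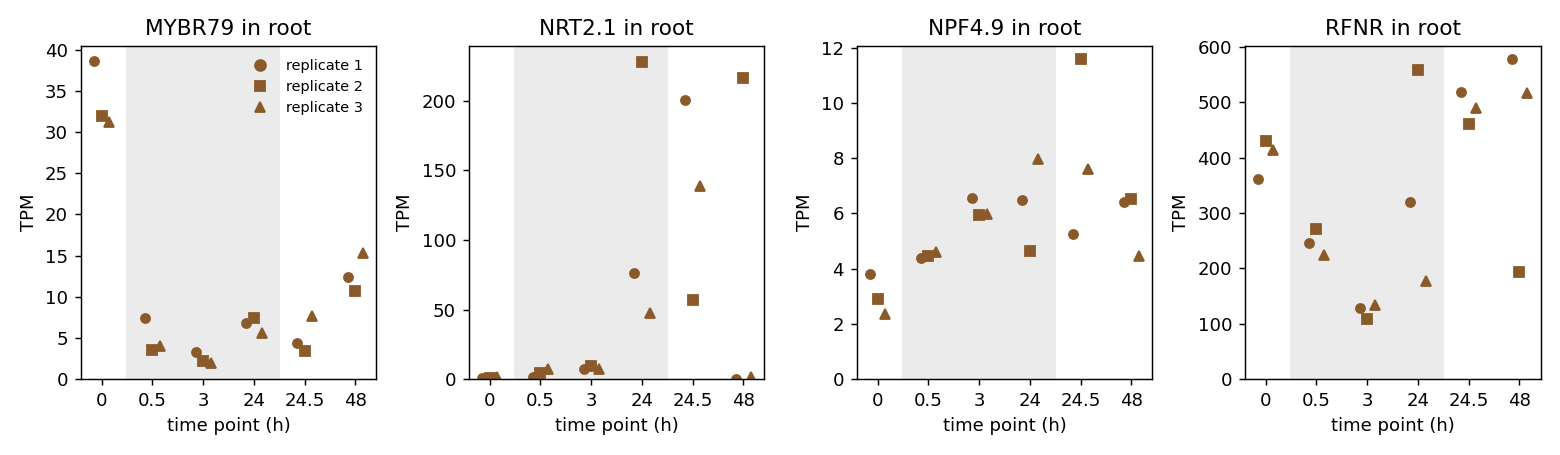
Levels in TPM (vertical axes, linear, each from 0) of MYBR79 and of NRT2.1, NPF4.9 and RFNR in root at the 6 time points, with a point per library, a shape per replicate and grey for nitrogen deprivation. MYBR79 has a mean of 33.9 TPM at 0 h and 2.48 at 3 h, NRT2.1 reaches 228 TPM in 24 h replicate 2, and RFNR is at 109 to 134 TPM at 3 h.

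Without root 48 h replicate 2, the library that stood apart, the MYBR79 change from 0 h to 48 h in root was -1.23 and that from 24 h to 48 h was 0.96, against -1.35 ± 0.25 and 0.85 ± 0.25 with it (SE, log2). In leaf the change from 24 h to 48 h was -0.50 ± 0.41, and without 48 h replicate 3 it was 0.01.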

How the data were processed

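The authors aligned reads to the B73 version 5 genome with STAR and quantified genes with StringTie, and deposited TPM per gene, 1 table per tissue. The labels list Trimmomatic, whereas the methods state no trimming, and labels and methods name different nutrient solutions, pool sizes, kits and sequencers. TPM keeps no depth, so no interval that needs depth is given. The authors' DESeq2 results were not used.

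The analysis scale was log2(TPM + 1), on which the change of a low gene is understated. Genes that reached 1 TPM in at least 3 libraries of a tissue were tested (23268 genes in leaf, 26245 in root). Each tissue had 1 limma 3.58.1 fit of its 18 libraries (R 4.3.3, a coefficient per time point, eBayes with trend, two-sided, Benjamini-Hochberg adjustment). The fit was tested on simulated data. Descriptions used Python with pandas and SciPy.

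MYBR79, the lists and the tests were chosen with earlier results of these data known. Named were MYBR79, the list genes, and the first 10 named genes by likeness and by opposite pattern. The reference gene table (NAM-5.0) matched 0 file identifiers directly, so loci were found through the older identifiers of the study's clone sheet. No sequence of MYBR79 itself was used here. Alternatives were other pseudocounts (0.1 and 5), other filters (none, or a mean of 5 TPM or more), scaling by median of ratios or by quantiles, a replicate block, fits of the groups compared alone, each library left out, 100 leaf-specific genes and Spearman correlation.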

Additional observations from a re-analysis of the deposited data

Results flagged for a closer look

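The following genes differed between the 30 min after resupply and the 30 min after withdrawal in the interaction test (limma, Benjamini-Hochberg adjusted over all genes, 4 groups of 3 libraries). In root, the lhy1 models Zm00001eb415770 and Zm00001eb415760 had differences of 2.12 ± 0.33 and 1.66 ± 0.31 on the log2 scale (SE, adjusted p = 0.00151 and 0.00397). Both fell after withdrawal, and neither was called after resupply.

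Adagio protein 3 had differences of -2.68 ± 0.48 (Zm00001eb113780) and -2.53 ± 0.46 (Zm00001eb201580) in leaf (SE, limma adjusted p = 0.026 for both), and of -1.50 ± 0.31 and -2.03 ± 0.26 in root (adjusted p = 0.00694 and 0.000624). APRR1 Zm00001eb247330 had -1.22 ± 0.25 in root (SE, limma adjusted p = 0.00648). The clock-annotated genes were annotated from lists that the study called changed at 0.5 or 3 h, so a smaller change after resupply than after withdrawal is not independent of how they were chosen. The interaction includes the 0.5 h change, so its adjusted p-values for Adagio protein 3 and APRR1 describe these genes and are not evidence.

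Both leaf calls were lost under a pseudocount of 5 (adjusted p = 0.0558 and 0.116), without the filter (0.0702 and 0.0705) and when any 1 of several libraries was left out (adjusted p up to 0.0821 for both). The APRR1 call in root was lost without root 0 h replicate 1 (-0.94) and under a pseudocount of 5 (-0.90), and that of Adagio protein 3 Zm00001eb201580 in root under a pseudocount of 5 (-0.99).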

How the results depend on the processing

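The MYBR79 changes kept their direction in all 128 refits that left no library out, and 11 of them moved by more than the spread between replicates. In leaf at 3 h the change was -6.11 with a pseudocount of 0.1, -5.13 with 5 and -6.09 with median-of-ratios scaling, which took the median of all leaf genes at 3 h from 0.19 to 0.00. In root, a pseudocount of 5 gave -1.97 (0.5 h), -2.38 (3 h), -1.74 (24 h), -1.96 (24.5 h) and -1.13 (48 h) for the changes from 0 h, 0.61 for 48 h against 24 h and 1.75 for resupply minus withdrawal, and a pseudocount of 0.1 gave -3.75 at 3 h. A larger pseudocount shrinks changes of low values by construction. With each library left out in turn, 107 of 108 values stayed within that spread, and the leaf change from 24 to 48 h ran from -1.08 to 0.013, the latter reversed in sign.

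The MYB-related count in leaf at 24 h went from 1 to 0 with a pseudocount of 5 and with a mean of at least 5 TPM, and ran from 0 to 1 with a library left out. In root at 24.5 h against 24 h it went from 2 to 0 and to 1 under the same settings, and ran from 1 to 3. In root at 3 h it ran from 2 to 4. The other counts stayed within 1.5 times. Of the calls of single genes, 19 of 281 refits and 36 of 258 with a library left out lost the call, and none changed sign.

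Scaling shifted the split of calls over all genes. The share called higher went from 62.3% to 47.5% in leaf at 3 h, from 40.8% to 25.0% in leaf at 24 h, from 31.6% to 42.2% in root at 24 h, from 81.8% to 69.6% in root at 24.5 h against 24 h, and from 74.3% to 44.0% for the root interaction with median-of-ratios scaling. MYBR79 and the lhy1 calls kept their direction.

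Same-numbered replicates of a tissue did not deviate together in the mean over pairs (correlation 0.015 in leaf and -0.016 in root). Single pairs ran from -0.257 to 0.448 in leaf and from -0.346 to 0.187 in root, so pairing of some groups was not settled. MYBR79 was highest in replicate 1 at 0, 0.5 and 3 h in both tissues, and in replicate 2 or 3 at the later times. Pairing of leaf with root by number was not tested. With the replicate block, the MYBR79 changes were as without it (-2.73 in leaf and -2.58 in root at 0.5 h), and 1 call reported here was lost, Adagio protein 3 Zm00001eb201580 in leaf for resupply minus withdrawal (adjusted p = 0.0532). By Spearman correlation, 5 of the 10 genes named most alike and 6 of the 10 named most opposite remained among the first 10 named. Depth is unknown, and 3 libraries per group limit each value.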
